A study of Mus musculus with 14 samples.

Results

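D2A1 tumor cells grown alone were set against Hsf1 null fibroblasts grown alone, with 2 arrays of each, out of the 14 arrays of the series. The members were chosen by sample title alone, and no measured value entered the choice. D2A1 is a mouse mammary carcinoma cell line, for which the labels give no genotype. The Hsf1 null fibroblasts are mouse embryonic fibroblasts with both copies of Hsf1 deleted (Hsf1 -/-). Both were kept in DMEM with 10% FCS, neither was in co-culture, and RNA was profiled at 72 hours on 1-colour (Cy3) Agilent arrays, 1 per sample. Wild-type (WT) embryonic fibroblasts grown alone, also on 2 arrays, are given beside the comparison because the cell types compared differ at once in cell type, in Hsf1 genotype and in the stock of cells they come from, and these cannot be told apart. The labels do not say whether the replicates were separate cultures, nor the passage, strain or number of embryos behind the fibroblasts. Each p-value therefore covers the variation between single arrays, part or all of which may be technical. That variation was taken, gene by gene, over all 7 groups of the series, co-cultured cells included, and not over the compared arrays alone.

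HSF1 is the main transcription factor of the heat shock response: it trimerises on proteotoxic stress, binds heat shock elements in promoters and switches on chaperone genes, and it is also active in many tumors and in the fibroblasts around them. Carcinoma cells derive from epithelium, in which keratin filaments and E-cadherin-based junctions hold cells together, and can keep or lose those features in culture. Fibroblasts are mesenchymal cells that secrete and remodel fibrillar collagen matrix, and they keep a record of their position in the embryo in the Hox genes they express.

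Levels are the authors' log2 values, 1 per gene name, and a difference is tumor cells minus null fibroblasts on that scale (± SE), so that 1 unit is a 2-fold difference. The arrays of a pair were alike, with a Pearson correlation over genes of 0.993 between the tumor arrays and 0.996 between the null arrays, against 0.918 to 0.922 between a tumor and a null array. The scanner file of tumor array A was faulty, with outlier flags on 32.1% of its spots and a correlation of at most 0.302 with the sound arrays. Its column in the authors' table showed no such fault. Values on the sound scanner files, where given, leave that array out, so tumor cells there rest on array B. Whether a gene was above background in tumor cells was therefore read from array B alone. Replicate A and replicate B lay on different slides, so each slide held 1 array of each group.

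Of 25896 genes tested in the limma fit, 13626 passed at an adjusted p under 0.05, 52.6% of those tested. They divided into 7057 higher (27.3%) and 6569 lower (25.4%) in tumor cells. With at least a 4-fold difference, 814 genes were higher (3.14%) and 1383 lower (5.34%) in tumor cells, 8.48% in all. The sign was the same on both slides for 13625 of the 13626 genes. Both slides entered the fit that chose these genes, so this is not a separate check of them. On tumor array B, 1159 genes were well above background that were not so on both null arrays, 498 of them on neither null array. On both null arrays, 2767 genes were well above background that were not so on tumor array B. The first counts rest on 1 array and the last on 2, so their sizes cannot be set against each other. The median difference over all genes tested was 0.07. The count of 13626 was 1414 when the values were taken from all 14 scanner files, the faulty ones included.

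**Figure D1:**
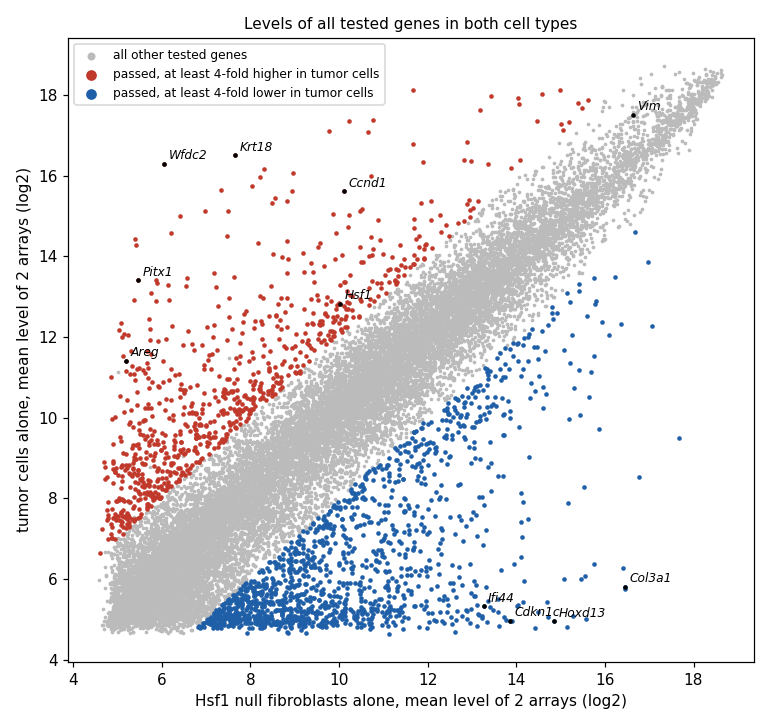
Mean level of each tested gene in tumor cells alone (y axis) against Hsf1 null fibroblasts alone (x axis), both log2, 2 arrays each. Red points are the 814 genes at least 4-fold higher and blue points the 1383 genes at least 4-fold lower in tumor cells, and black points mark 11 genes described in the text.

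Hsf1 itself, the deleted gene, read 12.85 and 12.81 in tumor cells, against 10.07 and 9.97 in null fibroblasts, and 12.01 and 11.69 in WT fibroblasts. The groups did not overlap, and Hsf1 was lowest in the null fibroblasts. The difference was 2.81 ± 0.12 (adjusted p = 2.35e-08), or 7.03-fold, with 2.78 on slide A and 2.84 on slide B, and null minus WT was -1.83 ± 0.12 (adjusted p = 1.12e-06). The single Hsf1 probe of 60 bases lies at chr15:76331320-76331379 in mm9 and still read above background in null fibroblasts; whether it lies outside the deleted part of the gene was not tested.

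Null minus WT is also the test of whether a gene's difference from tumor cells depends on which fibroblasts are used, because the tumor arrays cancel in it. It passed for 8746 genes (33.8%), of which 4633 were higher (17.9%) and 4113 lower (15.9%) in null fibroblasts. Tumor cells against WT fibroblasts gave 13307 genes (51.4%), with 7202 higher (27.8%) and 6105 lower (23.6%). That comparison shares the tumor arrays with the one described, so its values are given only side by side.

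**Figure D2:**
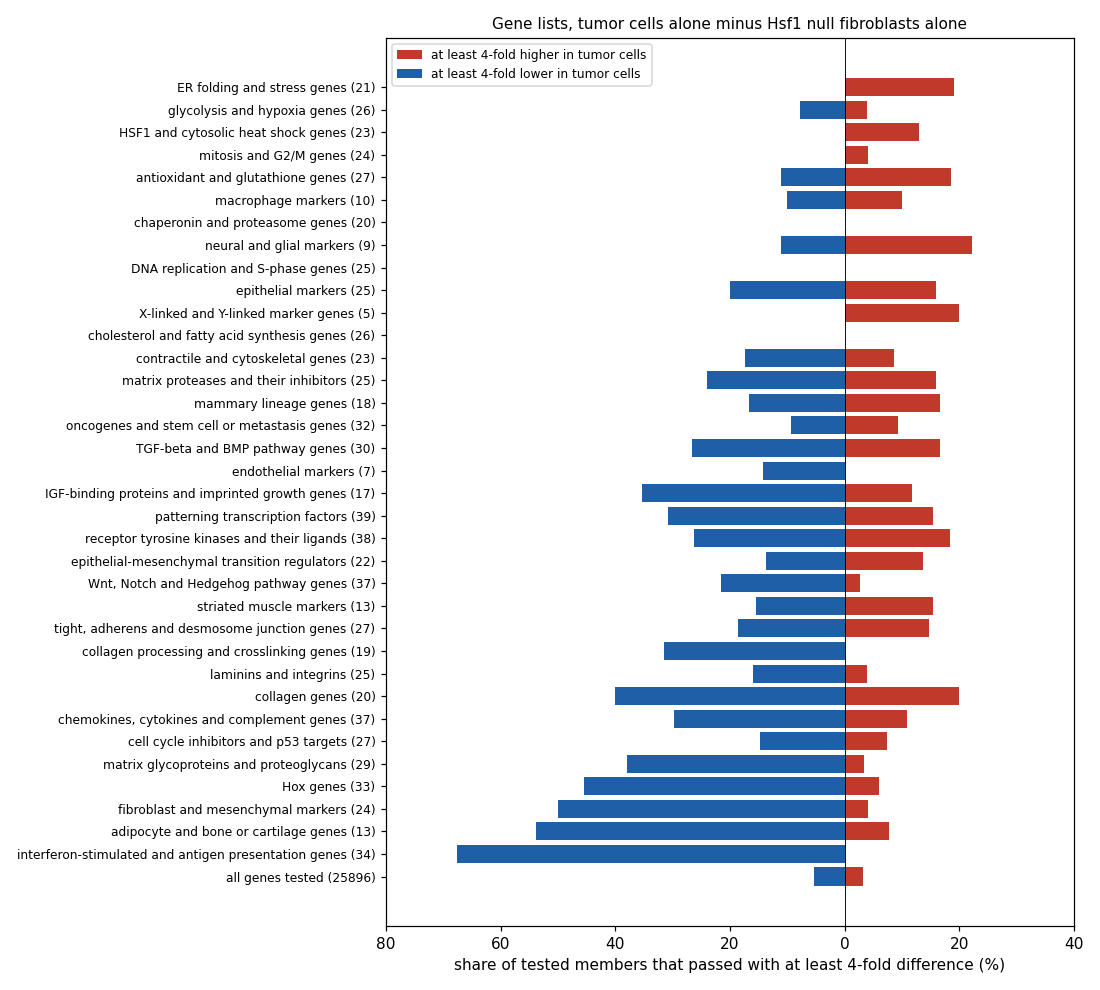
Share of the tested members of 35 gene lists that passed with at least a 4-fold difference, higher (red, right) or lower (blue, left) in tumor cells than in Hsf1 null fibroblasts, ordered by the list's median difference, with the number of tested members in brackets and all 25896 tested genes in the bottom row. The interferon list reaches farthest to the left, with 23 of 34 members, and the ER folding list has 4 of 21 members to the right and none to the left.

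Markers of each label went both ways. Of 25 tested epithelial markers, 9 were higher and 7 lower in tumor cells, and of 24 fibroblast and mesenchymal markers 6 were higher and 13 lower. Every list count, here and below, stands beside the shares over all genes tested. These were 27.3% higher and 25.4% lower, and 3.14% and 5.34% at 4-fold or more. The epithelial counts of 9 and 7 lie near them. At 4-fold or more the counts were 4 higher and 5 lower for the epithelial list, and 1 higher and 12 lower for the fibroblast list, whose median difference was -1.79. That median was -0.19 over the members well above background in both groups, and -2.81 on the sound scanner files. Krt18, a keratin of simple epithelia, read 16.47 and 16.54 in tumor cells, against 7.40 and 7.91 in null fibroblasts. Both tumor arrays stood far above both null arrays, with a difference of 8.85 ± 0.22 (adjusted p = 7.47e-10), or 461-fold. Krt8, its filament partner, was 2.06 higher, and Pkp3, a desmosome plaque protein, 4.45 higher. The tight junction protein gene Cldn3 read 9.93 and 9.73 in tumor cells, against 5.12 and 5.42 in null fibroblasts, where it was not well above background, so that it was at least 23.6-fold higher in tumor cells. Such a bound sets the brighter group's mean against, on each dim array, the gene's own value or, where higher, the dimmest value still well above background on that array. Where the gene's own values were the higher ones, as for Cldn3, the bound equals the plain fold difference and leaves out its error. All such bounds hold for the authors' values only, where Cldn3 differed by 4.56. On the sound scanner files Cldn3 differed by 7.04, and by 3.495 with normexp correction and quantile scaling of these files.

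Other defining epithelial genes were not detected in the tumor cells. Cdh1, which encodes E-cadherin, read 5.29 and 5.01 in tumor cells, against 5.59 and 5.67 in null fibroblasts. It was not well above background in tumor cells and lower than in null fibroblasts (difference -0.47 ± 0.11, adjusted p = 0.00518). With normexp correction and quantile scaling of the sound scanner files the Cdh1 difference was -0.23 and did not pass. Grhl2, a regulator of epithelial junction genes, was also not well above background there, with 5.11 and 5.26 in tumor cells, against 5.35 and 5.89 in null fibroblasts; its difference did not pass (adjusted p = 0.0542) but did without null array A (-0.70) and with the slide as a replicate block (adjusted p = 0.0233). Epcam, Ocln and Ovol1 were on the array but failed the background filter in every group, so they were not tested. In all, 9 of the 25 tested epithelial markers were not well above background in tumor cells.

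A set of epithelial genes was instead high in the null fibroblasts. Lsr, a receptor of tricellular tight junctions, read 5.18 and 5.97 in tumor cells, against 12.98 and 13.18 in null fibroblasts, and 6.90 and 7.36 in WT fibroblasts. Grhl3, a grainyhead factor of surface epithelium, read 5.43 and 5.26 in tumor cells, against 11.46 and 11.47 in null fibroblasts, and 5.06 and 5.28 in WT. Neither tumor nor WT arrays came near the null values of these genes: the differences were -7.51 ± 0.38 and -6.12 ± 0.22 for tumor minus null, and null minus WT was 5.95 and 6.29, all with adjusted p at or below 7.98e-07. Krt19, another simple keratin, read 5.29 and 5.42 in tumor cells, against 11.70 and 11.98 in null fibroblasts, and the protease inhibitor gene Spint2 read 8.90 and 8.63 in tumor cells, against 13.01 and 13.69 in null fibroblasts. Ripk4, a kinase of epidermal differentiation and among the 15 genes with the lowest differences, read 5.05 and 6.08 in tumor cells, against 12.92 and 13.19 in null fibroblasts, and 5.83 and 6.29 in WT. These genes passed null minus WT as well, with Krt19 at 3.13, Spint2 at 4.76 and Ripk4 at 6.998. The null fibroblasts carried these epithelial transcripts at levels that the WT fibroblasts did not reach. The epithelial markers' log2 levels summed to 179 to 179.8 on the tumor arrays, 183 to 187 on the null arrays and 162 to 164 on the WT arrays, and the fibroblast markers' to 229 to 232 on the tumor arrays, 295 to 296 on the null arrays and 347 to 348 on the WT arrays. The part of these transcripts in the differences that follow was not tested. In bulk RNA, some cells with much of a transcript and many cells with a little cannot be told apart.

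**Figure D3:**
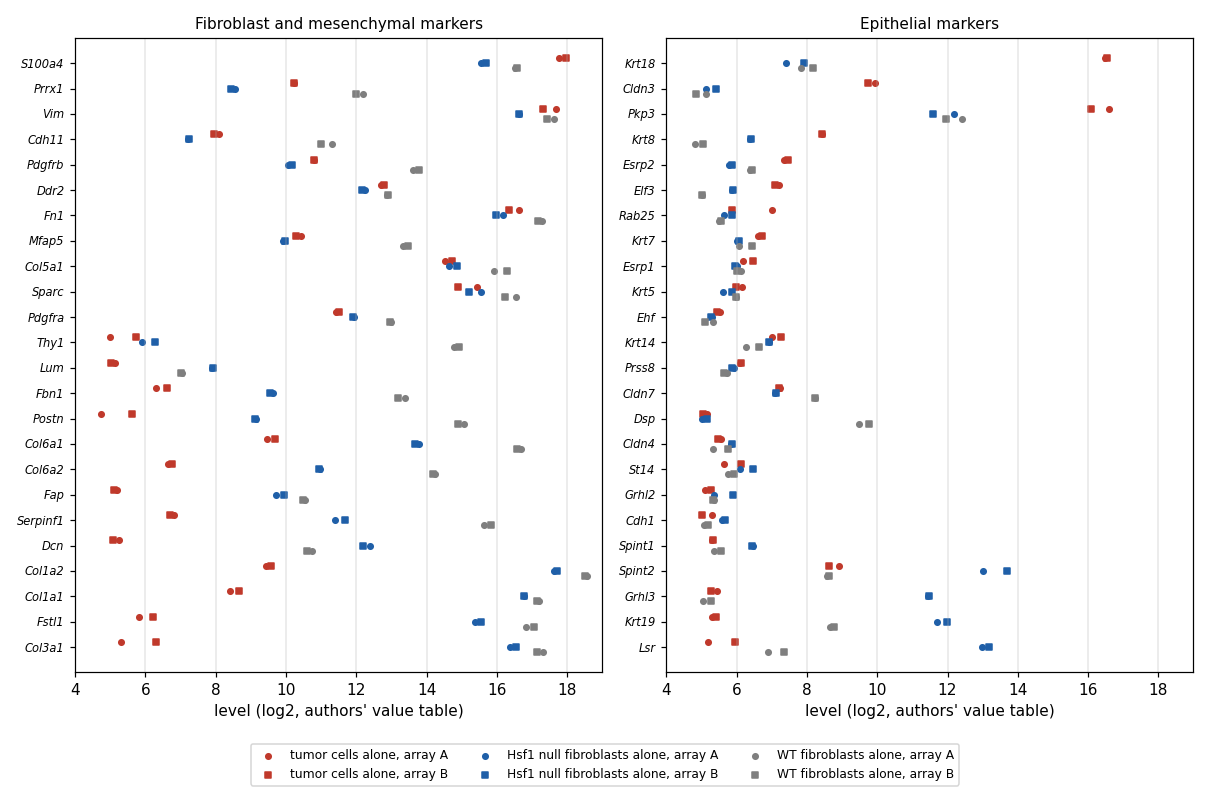
Levels of tested fibroblast and mesenchymal markers (left) and epithelial markers (right) on every array of cells grown alone, log2, ordered by the tumor minus null difference, with red for tumor cells, blue for Hsf1 null fibroblasts and grey for WT fibroblasts, circles for array A and squares for array B. The red points of Krt18, Cldn3 and Pkp3 lie to the right of the blue ones, and those of Lsr, Krt19 and Grhl3 lie far to the left.

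The fibroblast markers divided the same way. Transcripts of some secreted proteins of fibrillar matrix were low in tumor cells. Col3a1, type III collagen, read 5.32 and 6.30 in tumor cells, against 16.38 and 16.54 in null fibroblasts, and Dcn, the proteoglycan decorin, 5.26 and 5.08 in tumor cells, against 12.38 and 12.20 in null fibroblasts. The differences were -10.65 ± 0.49 (adjusted p = 3.85e-08) and -7.12 ± 0.32 (adjusted p = 2.93e-08). Fap, fibroblast activation protein, was at least 25.8-fold lower. Other markers in common use for mesenchyme were not lower in tumor cells. Vim, vimentin, read 17.69 and 17.32 in tumor cells, against 16.64 and 16.62 in null fibroblasts, and S100a4, also called fibroblast-specific protein, 17.77 and 17.97 in tumor cells, against 15.56 and 15.68 in null fibroblasts. Both passed as higher in tumor cells (0.88 and 2.25), as did the mesenchymal factor Prrx1 (1.73) and the PDGF receptor Pdgfrb (0.69). Thy1, a surface antigen by which fibroblasts are sorted, read 4.99 and 5.72 in tumor cells, against 5.91 and 6.28 in null fibroblasts, a difference that did not pass (adjusted p = 0.602), and 14.79 and 14.93 in WT fibroblasts. Thy1 was thus low in the null fibroblasts too, though well above background on at least 1 null array. Of the 24 fibroblast markers, 2 were higher and 18 lower in null than in WT fibroblasts, the lower ones including Postn, the matricellular protein periostin, at -5.84 and Fbn1, fibrillin 1, at -3.71.

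The promoters of 2 genes high in tumor cells and of 2 high in null fibroblasts are shown for the E-box that ZEB and SNAI repressors read, CACCTG or CAGGTG, in capitals. Each runs 5′ to 3′ on the gene's strand from 250 bases before to 50 after the RefSeq start (GRCm38.p6), at chr15:102027966-102028265 (+) for Krt18, chr5:134985964-134986263 (+) for Cldn3, chr7:30973420-30973719 (-) for Lsr and chr4:135573583-135573882 (-) for Grhl3.
Krt18: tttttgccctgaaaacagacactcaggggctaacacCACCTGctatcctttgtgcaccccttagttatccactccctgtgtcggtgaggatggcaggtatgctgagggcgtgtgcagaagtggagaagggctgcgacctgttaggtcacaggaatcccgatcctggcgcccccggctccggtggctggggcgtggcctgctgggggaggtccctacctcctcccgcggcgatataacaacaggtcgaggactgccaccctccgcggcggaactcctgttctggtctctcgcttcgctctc
Cldn3: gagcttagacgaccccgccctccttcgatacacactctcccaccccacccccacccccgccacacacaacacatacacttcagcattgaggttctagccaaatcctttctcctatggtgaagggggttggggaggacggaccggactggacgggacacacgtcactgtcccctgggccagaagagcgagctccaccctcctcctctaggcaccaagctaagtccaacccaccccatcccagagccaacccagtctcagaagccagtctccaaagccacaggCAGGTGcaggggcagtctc
Lsr: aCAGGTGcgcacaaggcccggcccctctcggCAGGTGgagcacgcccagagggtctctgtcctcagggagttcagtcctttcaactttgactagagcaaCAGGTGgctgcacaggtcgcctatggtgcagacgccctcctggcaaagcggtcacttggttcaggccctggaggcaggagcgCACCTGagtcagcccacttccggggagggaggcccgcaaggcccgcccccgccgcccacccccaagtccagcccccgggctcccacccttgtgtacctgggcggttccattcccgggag
Grhl3: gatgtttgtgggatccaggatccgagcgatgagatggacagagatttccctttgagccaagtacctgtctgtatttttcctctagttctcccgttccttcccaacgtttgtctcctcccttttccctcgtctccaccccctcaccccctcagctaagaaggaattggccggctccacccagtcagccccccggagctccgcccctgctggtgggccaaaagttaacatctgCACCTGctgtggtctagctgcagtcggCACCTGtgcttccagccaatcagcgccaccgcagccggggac
Krt18 and Cldn3 held 1 match each, Grhl3 held 2 and Lsr held 4. Of 15 epithelial markers with a promoter in the table, 12 (80%) held the E-box, against 20.03% of all 27025 promoters, 1 per gene. It was in 6 of 6 such promoters of markers higher in tumor cells and in 3 of 4 of markers lower in them. Among the repressor genes, Snai1 and Zeb1 were expressed in both cell types, and whether their proteins act on these promoters was not tested. Snai1 read 12.69 and 12.63 in tumor cells, against 10.29 and 10.28 in null fibroblasts, with a difference of 2.38 ± 0.15 (adjusted p = 3.52e-07). Zeb1 read 12.15 and 12.29 in tumor cells, against 12.15 and 11.99 in null fibroblasts and did not pass (adjusted p = 0.349).

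Among the 22 regulators of epithelial-mesenchymal transition tested, 9 were higher and 6 lower in tumor cells. Twist1 was 1.34 higher, while its relative Twist2 read 5.14 and 5.06 in tumor cells, against 11.36 and 11.34 in null fibroblasts, at least 76.2-fold lower. Klf4 and Klf5, Krüppel-like factors of epithelium, were 2.73 and 2.33 higher. Of 27 junction genes, 6 were higher and 12 lower. Pkp1, another desmosome plaque protein, read 11.13 and 11.36 in tumor cells, against 5.51 and 5.45 in null fibroblasts, or at least 54.2-fold higher. The cadherin genes of mesenchyme went the other way: Cdh2, N-cadherin, read 6.27 and 6.45 in tumor cells, against 12.70 and 13.22 in null fibroblasts, and Cdh13, T-cadherin, 4.85 and 4.81 in tumor cells, against 13.18 and 13.04 in null fibroblasts. The Cdh2 difference was -6.60 ± 0.28 (adjusted p = 2.28e-08), and Cdh13 was at least 308-fold lower. Tight junction genes Cgn (-2.80) and F11r (-2.71) were lower in tumor cells than in null fibroblasts. Cgn, the plaque protein cingulin, read 9.78 and 9.98 in tumor cells, against 12.80 and 12.56 in null fibroblasts, and 6.63 and 6.29 in WT fibroblasts. The tumor value lay between those of the null and WT fibroblasts.

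The heat shock genes were mostly higher in tumor cells. Of 23 tested members of the HSF1 and cytosolic heat shock list, 14 were higher and 4 lower, with a median difference of 0.68, and 3 were at least 4-fold higher. Against WT fibroblasts the list was much the same, with 16 members higher and 2 lower in tumor cells and a median of 0.64. Hsph1, the large co-chaperone HSP110, read 14.64 and 14.38 in tumor cells, against 12.66 and 12.84 in null fibroblasts, and 14.39 and 14.30 in WT. Its difference was 1.76 ± 0.17 (adjusted p = 6.89e-06), and null minus WT was -1.60 ± 0.17 (adjusted p = 2.73e-05). The small heat shock protein gene Hspb1 read 16.34 and 16.59 in tumor cells, against 14.83 and 14.66 in null fibroblasts, and 15.50 and 15.50 in WT. Dnajb1, the HSP40 partner of HSP70, read 16.32 and 15.95 in tumor cells, against 14.78 and 14.88 in null fibroblasts, and 15.42 and 15.56 in WT. For both, tumor cells were highest and null fibroblasts lowest, without overlap of the groups; the differences were 1.72 ± 0.18 and 1.31 ± 0.20. Hspa1a, an inducible HSP70, was 0.85 higher in tumor cells, with null minus WT at -0.83; it did not pass without tumor array A (0.77) or without null array A (0.58). These 4 genes and Hsf1 were the 5 members lower in null than in WT fibroblasts, and 4 members were higher, namely Hspa4 (0.44), Hspb8 (1.18), Hspd1 (0.86) and Fkbp4 (0.80). Both counts, of 23, lie near the shares over all genes, 15.9% lower and 17.9% higher.

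The chaperone genes Hspa4l, Hsp90aa1 and Hspe1 differed between tumor cells and null fibroblasts while null minus WT did not pass. Hspa4l, an HSP110 relative, read 13.70 and 13.61 in tumor cells, against 11.20 and 10.999 in null fibroblasts, and 11.02 and 10.83 in WT, a tumor minus null difference of 2.56 ± 0.13. Hsp90aa1, the inducible HSP90, was 1.15 higher. Hspe1, the mitochondrial HSP10, was 2.20 higher, and did not pass without tumor array A (1.90) or null array B (1.58). The abundant Hsp90ab1 and Hspa8 did not pass, at 0.29 and 0.31 (adjusted p = 0.0851 and 0.0776). The 4 members lower in tumor cells were the small heat shock protein genes Hspb8 (-0.76) and Cryab (-0.64), the HSP40 gene Dnaja1 (-0.60) and the co-chaperone Bag3 (-0.40). None of these 4 passed on the sound scanner files (adjusted p = 0.987 for Hspb8, 0.351 for Cryab, 0.288 for Dnaja1 and 0.68 for Bag3). Bag3 was also lost without tumor array A (-0.42), tumor array B (-0.38) or null array B (-0.27), and Dnaja1 without tumor array B (-0.51) or null array B (-0.48). Of 20 chaperonin and proteasome genes, 8 were higher and 1 lower, none by 4-fold.

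Promoters of 3 members of this list are shown for 1 form of the core of the heat shock element, GAANNTTC, which reads the same on both strands, in capitals. They lie at chr5:149636287-149636586 (-) for Hsph1, chr5:135887669-135887968 (+) for Hspb1 and chr8:83607925-83608224 (+) for Dnajb1, in the same RefSeq window and build as above.
Hsph1: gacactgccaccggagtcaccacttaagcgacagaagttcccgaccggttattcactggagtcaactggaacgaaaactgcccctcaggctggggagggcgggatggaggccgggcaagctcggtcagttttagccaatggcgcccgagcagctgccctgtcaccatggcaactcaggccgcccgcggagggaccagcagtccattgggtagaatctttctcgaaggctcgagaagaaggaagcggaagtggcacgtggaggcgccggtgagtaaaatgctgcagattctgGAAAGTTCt
Hspb1: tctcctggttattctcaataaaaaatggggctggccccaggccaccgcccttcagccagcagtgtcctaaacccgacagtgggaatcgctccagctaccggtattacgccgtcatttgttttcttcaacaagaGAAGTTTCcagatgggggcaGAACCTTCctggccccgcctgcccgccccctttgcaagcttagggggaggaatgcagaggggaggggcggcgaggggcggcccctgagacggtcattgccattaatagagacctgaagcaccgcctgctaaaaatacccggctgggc
Dnajb1: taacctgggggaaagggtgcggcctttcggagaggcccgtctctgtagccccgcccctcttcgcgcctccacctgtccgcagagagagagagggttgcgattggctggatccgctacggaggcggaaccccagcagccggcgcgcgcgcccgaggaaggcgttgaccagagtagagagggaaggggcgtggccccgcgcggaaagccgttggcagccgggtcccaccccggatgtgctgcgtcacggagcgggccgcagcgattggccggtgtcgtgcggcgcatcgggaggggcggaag
Hspb1 held 2 matches of this form before the start and Hsph1 held 1, which begins 42 bases into the gene. Dnajb1 held none in this window, which says only that these letters are not in it. Other forms of the element were not searched for, so these are not counts of all heat shock elements. Units in the opposite orientation, such as the unmarked ttctcgaa before the Hsph1 start, were therefore not counted. Hsph1 and Dnajb1 have 2 promoters in the table, and the one listed first was used. GAANNTTC was in 9 of the 18 list promoters found in the table (50%), against 7.95% of all 27025. It was in 6 of 12 promoters of members higher in tumor cells and in 3 of 3 of members lower in them.

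Genes of endoplasmic reticulum folding and stress were higher in tumor cells for 16 of 21 members and lower for none, with a median of 0.94. Trib3, a pseudokinase induced through ATF4, read 14.65 and 14.33 in tumor cells, against 10.77 and 10.66 in null fibroblasts, and 14.996 and 14.93 in WT. Its difference was 3.77 ± 0.19 (adjusted p = 6.86e-08), and the tumor arrays lay close to the WT arrays. Chac1, a glutathione-degrading enzyme of the same response, read 14.28 and 14.18 in tumor cells, against 11.80 and 11.79 in null fibroblasts. Atf4 itself was 1.59 higher and Asns, asparagine synthetase, 1.14 higher than in null fibroblasts, with null minus WT at -1.30 and -1.13. Of the 21 members, 9 were lower in null than in WT fibroblasts and 0 higher. The folding genes Sdf2l1 (2.18), Creld2 (1.62) and Hspa5, which encodes BiP (0.76), were higher in tumor cells, with null minus WT not passing.

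Matrix genes were measured as RNA only, and the collagen genes went both ways. Of 20 collagen genes, 4 were higher and 10 lower in tumor cells, and 4 and 8 were so by at least 4-fold. The fibrillar chains Col1a1 and Col1a2 read 8.41 and 8.65 in tumor cells, against 16.77 and 16.77 in null fibroblasts, and 9.43 and 9.56 in tumor cells, against 17.62 and 17.72 in null fibroblasts. With differences of -8.24 ± 0.34 and -8.17 ± 0.39, they differed from null fibroblasts in the same direction as Col3a1, and null minus WT did not pass for any of these 3 genes. Col6a1 and Col6a2, chains of beaded-filament collagen VI, were -4.14 and -4.24, and Col5a2 was at least 41.8-fold lower. Col5a1, the partner chain of Col5a2, read 14.53 and 14.72 in tumor cells, against 14.63 and 14.87 in null fibroblasts and did not pass (adjusted p = 0.557). The higher members were of basement membrane and anchoring collagens and a short-chain one. Col4a5 read 11.57 and 11.75 in tumor cells, against 5.76 and 5.58 in null fibroblasts, and 13.17 and 13.26 in WT. Col18a1, the source of endostatin, read 14.27 and 14.18 in tumor cells, against 9.55 and 9.51 in null fibroblasts, and 11.37 and 11.31 in WT. Col8a1 and Col7a1, the anchoring fibril collagen, were 3.49 and 2.97 higher.

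Enzymes that process collagen were lower in tumor cells for 10 of 19 members and higher for 3. Fkbp10, a collagen chaperone of the endoplasmic reticulum, read 5.80 and 5.68 in tumor cells, against 16.43 and 16.46 in null fibroblasts. No array of either group came near the other, and the gene was at least 1666-fold lower in tumor cells, the largest such bound in the comparison. Lox, lysyl oxidase, was at least 38.8-fold lower, Adamts2, the procollagen N-proteinase, at least 42.2-fold lower, and Loxl1 differed by -5.20. Plod2, a lysyl hydroxylase, was 1.87 higher and P4ha2, a prolyl hydroxylase, 1.14 higher in tumor cells. Of 29 matrix glycoproteins and proteoglycans, 18 were lower and 4 higher, with a median of -1.29. Nid2 (nidogen 2) was at least 175-fold lower, Ogn (osteoglycin) differed by -7.24, and Mgp (matrix Gla protein) by -6.80. Fbln2 (fibulin 2) was 3.06 higher and Thbs1 (thrombospondin 1) 1.84 higher. Of these 29 genes, 4 were higher and 22 lower in null than in WT fibroblasts. Bgn, the proteoglycan biglycan, read 8.94 and 8.24 in tumor cells, against 9.28 and 9.21 in null fibroblasts, and 14.78 and 14.78 in WT, and its tumor minus null difference did not pass (adjusted p = 0.235).

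Matrix proteases and their inhibitors went both ways, 10 higher and 10 lower of 25. Mmp10, the protease stromelysin 2, read 13.21 and 13.32 in tumor cells, against 6.54 and 6.55 in null fibroblasts, and 5.49 and 5.40 in WT. The difference was 6.72 ± 0.22 (adjusted p = 3.61e-09), or 106-fold. The urokinase gene Plau (2.80) and its receptor Plaur (3.004) were higher in tumor cells. Serpine2, a protease inhibitor, read 6.27 and 6.42 in tumor cells, against 12.60 and 12.50 in null fibroblasts, a difference of -6.20 ± 0.34. Mmp2, gelatinase A, was at least 6.3-fold lower, with null minus WT at -5.37. Of 25 laminin and integrin genes, 7 were higher and 12 lower. Itgb7, a β chain known from lymphocytes, read 11.80 and 11.98 in tumor cells, against 5.86 and 5.96 in null fibroblasts, or 5.98 higher. Lamb3, a chain of epithelial laminin, was at least 7.66-fold lower. The contractile list held 10 higher and 9 lower members of 23. Acta2, smooth muscle actin and a marker of myofibroblasts, read 14.10 and 13.62 in tumor cells, against 17.002 and 16.93 in null fibroblasts, and Myl9, a myosin light chain, 12.44 and 12.13 in tumor cells, against 16.91 and 17.20 in null fibroblasts. Actg2, an enteric smooth muscle actin, differed the other way with 15.22 and 14.86 in tumor cells, against 9.76 and 9.95 in null fibroblasts, and 15.16 and 15.46 in WT.

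Of the 38 receptor tyrosine kinases and ligands tested, 14 were higher and 16 lower in tumor cells, and ligands of the epidermal growth factor family were among the higher ones. Areg, amphiregulin, read 11.33 and 11.49 in tumor cells, against 5.12 and 5.26 in null fibroblasts, and 5.63 and 5.67 in WT. It was not well above background in null fibroblasts and at least 74.9-fold higher in tumor cells. The related ligands Ereg (3.79), Hbegf (3.50), Nrg1 (2.77) and Btc (1.30) were also higher, while Tgfa did not pass (0.34, adjusted p = 0.0642, and 0.0479 with the slide as a replicate block). Egfr, the receptor of amphiregulin, read 5.31 and 5.25 in tumor cells, against 11.08 and 11.19 in null fibroblasts, and 11.99 and 12.05 in WT. The receptor genes Erbb3 and Erbb4 of the same family failed the background filter in every group. The tumor value of Egfr was low on both arrays, with a difference of -5.86 ± 0.26 (adjusted p = 2.83e-08). Among other receptors, Epha2 (3.77), Met (2.28) and Axl (1.84) were higher, and Fgfr2 (-3.65), Ddr1, a collagen receptor (-2.57), and Mertk (-2.19) lower. The lymphatic growth factor gene Vegfc was at least 257-fold lower, whereas Vegfa was 1.89 higher.

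In the TGF-β and BMP pathways 12 genes were higher and 12 lower of 30. Inhba, the activin A subunit, read 14.03 and 13.93 in tumor cells, against 8.77 and 8.66 in null fibroblasts, and 12.41 and 12.35 in WT, a difference of 5.27 ± 0.11. Tgfb1 was 2.22 higher, while Tgfb2 (-2.41) and Tgfb3 (-2.19) were lower. Bmp2 was at least 49.1-fold and Bmp4 at least 11.8-fold lower, and the BMP-responsive genes Id1 (-2.70), Id3 (-4.05) and Smad6 (-3.14) were lower with them. Of 37 Wnt, Notch and Hedgehog genes, 5 were higher and 16 lower. Gli3, a Hedgehog effector of limb mesenchyme, read 5.22 and 6.10 in tumor cells, against 13.06 and 12.90 in null fibroblasts, or at least 159.9-fold lower. Wnt5a (-5.29), Wnt5b (-6.06) and the receptor gene Fzd1 (-5.77) were lower. Sfrp2, a secreted Wnt inhibitor, read 5.59 and 9.64 in tumor cells, against 10.41 and 10.69 in null fibroblasts, and 17.30 and 17.35 in WT; the tumor arrays differed from each other and the difference did not pass (adjusted p = 0.0904), but did without tumor array B (-4.96, adjusted p = 0.0105).

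Several imprinted growth genes were low in tumor cells. Sgce read 5.63 and 5.22 in tumor cells, against 14.60 and 14.79 in null fibroblasts, and Cdkn1c, the cell cycle inhibitor p57, 4.99 and 4.92 in tumor cells, against 13.999 and 13.70 in null fibroblasts. Tumor cells were at least 617-fold and 476-fold lower. Grb10, an adaptor that restrains insulin signalling, was at least 38.5-fold lower, and Plagl1, a zinc finger gene, differed by -4.49. Mest, Igf2, H19 and Meg3 did not pass, with null minus WT of -7.19, -1.72, -3.93 and -1.28. In the list with the IGF-binding proteins, 2 of 17 were higher, namely Igfbp4 (4.99) and Igfbp6 (2.36), and 8 lower.

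Interferon-stimulated and antigen presentation genes were lower in tumor cells for 31 of 34 members and higher for none, and 23 were at least 4-fold lower. The median difference was -2.69. Ifi44 read 4.97 and 5.68 in tumor cells, against 13.22 and 13.30 in null fibroblasts, and 9.80 and 10.05 in WT. Usp18, which removes ISG15 from proteins, read 6.72 and 6.02 in tumor cells, against 12.16 and 12.30 in null fibroblasts, and 7.24 and 7.57 in WT. The 3 groups were separate for both genes, with tumor cells lowest and null fibroblasts highest. Tumor cells were at least 245-fold and 58.1-fold lower than null fibroblasts. Mx2, an antiviral GTPase, was at least 84-fold lower, Oas2, a sensor of double-stranded RNA, at least 48.6-fold, and Irf7, the factor that amplifies the response, differed by -4.62. Immunoproteasome and peptide-loading genes Psmb8 (-3.81), Psmb9 (-4.10), Tap1 (-2.25) and Tapbp (-2.34) were lower.

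This difference depended on the fibroblasts. In null minus WT 33 of the 34 genes were higher in null fibroblasts and none lower, and against WT fibroblasts tumor cells were lower for 21 and higher for 6. The classical MHC class I gene H2-K1 read 14.87 and 14.91 in tumor cells, against 15.48 and 15.47 in null fibroblasts, and 13.41 and 13.47 in WT. It was -0.58 relative to null fibroblasts, and its tumor value exceeded both WT arrays; on the sound scanner files the difference from null was -0.07 and did not pass. H2-D1 and Irf1 did not pass (-0.46 and -0.18), nor did the class I regulator Nlrc5 (0.19).

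**Figure D4:**
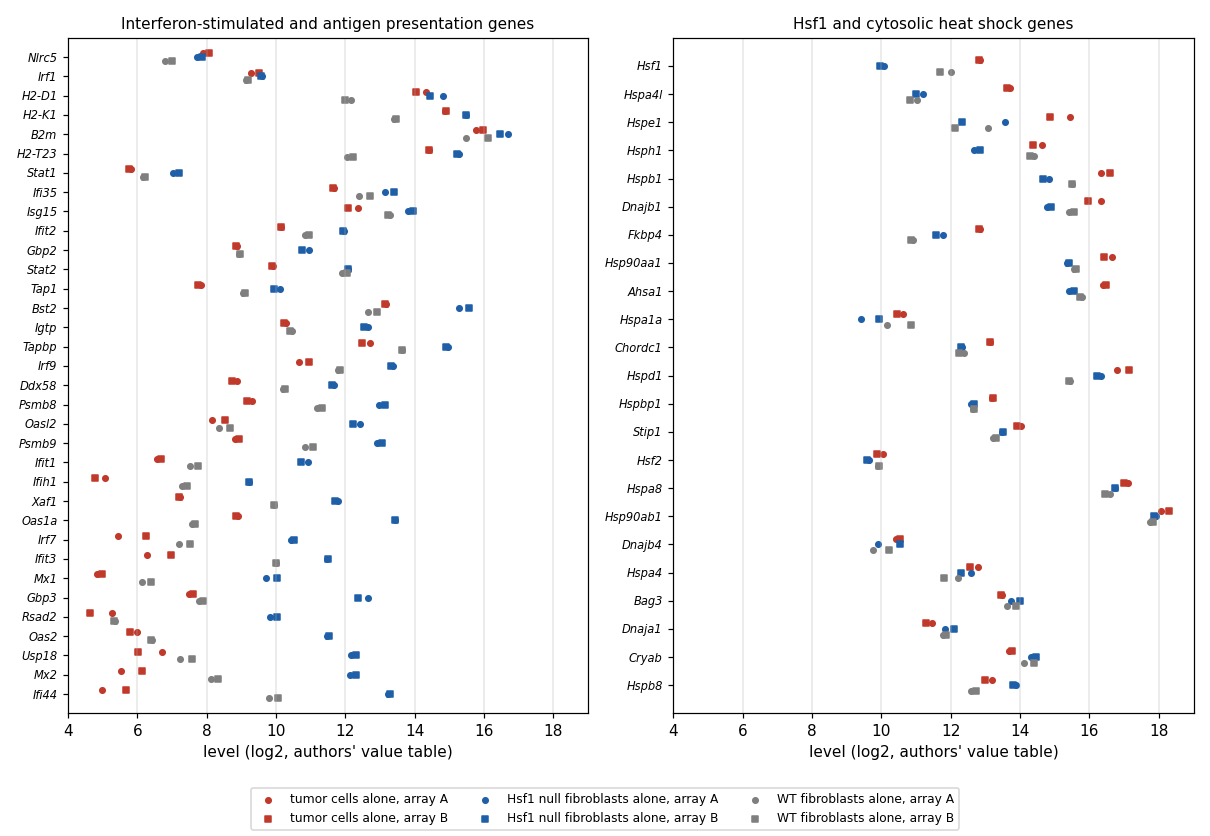
Levels of the tested interferon-stimulated and antigen presentation genes (left) and of Hsf1 and the cytosolic heat shock genes (right) on every array of cells grown alone, log2, ordered by the tumor minus null difference, with red for tumor cells, blue for Hsf1 null fibroblasts and grey for WT fibroblasts, circles for array A and squares for array B. On the left the blue points lie to the right of the red ones for 31 of 34 genes that passed. On the right Hsf1 shows the blue points lowest.

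Chemokines, cytokines and complement genes were lower in tumor cells for 18 and higher for 8 of 37. The monocyte chemokine genes Ccl2 and Ccl7 read 7.54 and 8.26 in tumor cells, against 14.13 and 14.17 in null fibroblasts, and 4.83 and 5.88 in tumor cells, against 13.04 and 13.20 in null fibroblasts. Their differences were -6.25 ± 0.41 and -7.77 ± 0.42, and null minus WT did not pass for either. Cxcl14 was at least 292-fold lower. C3, the central complement protein, read 11.67 and 11.68 in tumor cells, against 15.08 and 15.09 in null fibroblasts, and 10.81 and 10.89 in WT. The higher members included Cxcl5, a neutrophil chemokine (4.76), Il11 (3.30), the macrophage growth factor Csf1 (2.49) and the chemokine scavenger Cxcr7 (3.30). Cxcl5 read 11.02 and 11.09 in tumor cells, 6.25 and 6.35 in null and 13.12 and 13.16 in WT fibroblasts.

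Hox genes lie in clusters in which gene order follows the order of expression along the body, and the Hoxa genes divided by number. Of 33 tested Hox genes, 8 were higher and 20 lower in tumor cells, with a median of -1.58, and 21 were not well above background in tumor cells. Over the members well above background in both groups the median was 1.49. All 6 genes from Hoxa2 to Hoxa7 passed as higher in tumor cells. Hoxa5 read 11.06 and 10.84 in tumor cells, against 7.56 and 7.46 in null fibroblasts, and Hoxa2 10.18 and 10.05 in tumor cells, against 6.94 and 6.88 in null fibroblasts, with differences of 3.44 ± 0.13 and 3.21 ± 0.11. All 4 tested genes from Hoxa9 to Hoxa13 passed as lower: Hoxa9 differed by -4.06, Hoxa10 by -3.30, and Hoxa11 and Hoxa13 were at least 149-fold and 30.3-fold lower. The antisense transcript listed as Hoxa11as read 6.12 and 6.39 in tumor cells, against 16.29 and 16.54 in null fibroblasts. Whether overlapping transcripts meet on these probes was not tested.

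None of the 7 tested Hoxd genes was well above background in tumor cells, and all 7 were lower than in null fibroblasts. Hoxd13, the last gene of its cluster and a marker of distal limb, read 4.89 and 5.01 in tumor cells, against 14.92 and 14.79 in null fibroblasts, and 12.92 and 12.74 in WT, or at least 959-fold lower in tumor cells. Hoxd9, at 6.78 and 4.78 in tumor cells, against 10.16 and 10.21 in null fibroblasts, differed between the tumor arrays, both below the null arrays. Hoxd4 and Hoxd8 were at least 41-fold and 41.7-fold lower. The null and WT fibroblasts differed from each other as well, since 12 Hox genes were higher and 12 lower in null than in WT. Hoxc9 read 6.43 and 6.58 in tumor cells, against 5.63 and 5.86 in null fibroblasts, and 12.55 and 12.85 in WT, and its tumor minus null difference did not pass (adjusted p = 0.345).

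**Figure D5:**
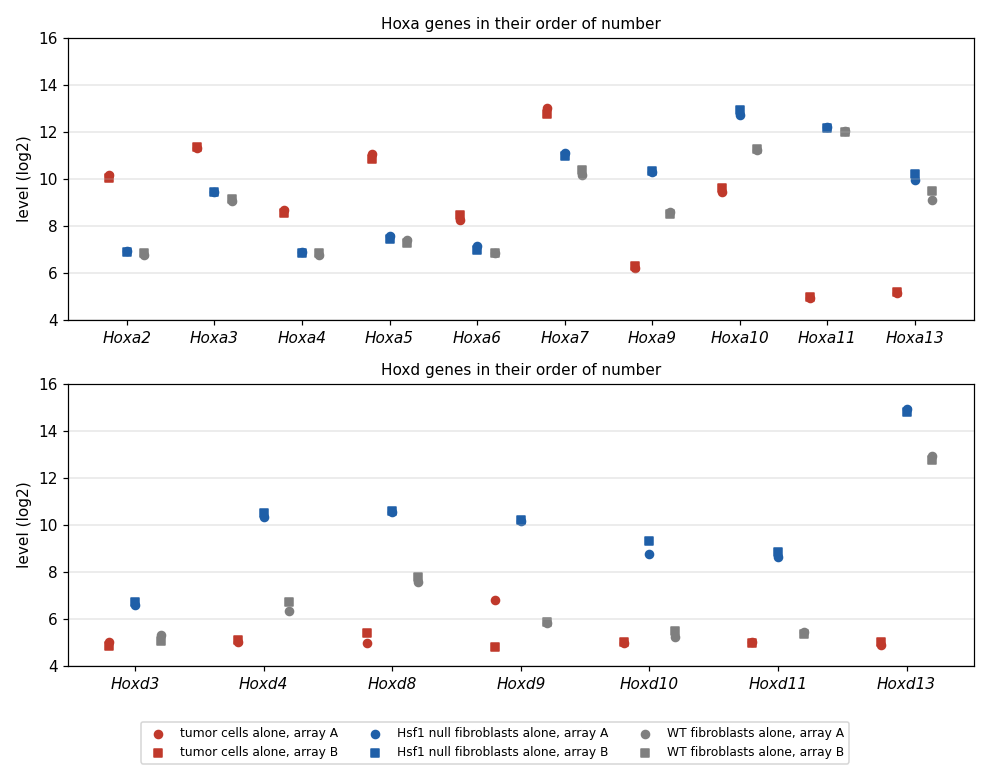
Levels (log2) of tested Hoxa genes (top) and Hoxd genes (bottom) in order of gene number on every array of cells grown alone, with red for tumor cells, blue for Hsf1 null fibroblasts and grey for WT fibroblasts, circles for array A and squares for array B. The red points lie above the blue ones from Hoxa2 to Hoxa7 and below them from Hoxa9 to Hoxa13 and for every Hoxd gene.

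Other patterning factors gave 13 higher and 16 lower genes of 39. Pitx1, the hindlimb homeobox gene, read 13.28 and 13.53 in tumor cells, against 5.40 and 5.51 in null fibroblasts, and 13.43 and 13.26 in WT. It was at least 247-fold higher in tumor cells than in null fibroblasts, while the tumor and WT arrays lay side by side. Tbx3, a T-box factor of limb and mammary gland, had the same order, with 12.18 and 12.36 in tumor cells, against 6.16 and 6.30 in null fibroblasts, and 11.98 and 11.96 in WT. Tbx5, the forelimb T-box gene, read 5.20 and 5.10 in tumor cells, against 12.27 and 11.94 in null fibroblasts, and 7.01 and 7.11 in WT. It was at least 124-fold lower in tumor cells, and null minus WT was 5.04. The null fibroblasts therefore held more Tbx5 and less Pitx1 than WT fibroblasts. Meis2, Six2 and Dlx2 were at least 46.5-fold, 46.5-fold and 92.2-fold lower in tumor cells, and Osr1 was 4.13 higher.

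Among the D-type cyclins, which start the cell cycle with CDK4 and CDK6, Ccnd1 and Ccnd2 were higher in tumor cells than in null fibroblasts. Ccnd1 read 15.55 and 15.68 in tumor cells, against 10.15 and 10.06 in null fibroblasts, and 14.74 and 14.60 in WT. Ccnd2 read 11.88 and 11.95 in tumor cells, against 7.45 and 7.51 in null fibroblasts, and 14.46 and 14.46 in WT. Null fibroblasts were lowest for both genes without overlap, with tumor minus null at 5.50 ± 0.10 and 4.43 ± 0.46 and null minus WT at -4.56 and -6.98. Ccnd3 did not pass (-0.02, adjusted p = 0.915). Of 27 tested genes of the list of cell cycle inhibitors and p53 targets, which also holds Trp53 and the 3 D-type cyclins, 14 were lower and 6 higher in tumor cells, Ccnd1 and Ccnd2 among the higher ones. Trp53, the p53 gene, read 7.98 and 8.42 in tumor cells, against 10.96 and 11.44 in null fibroblasts, a difference of -3.001 ± 0.22 (adjusted p = 1.21e-06). The p53 targets Trp53inp1 (-4.47), Phlda3 (-1.53) and Mdm2 (-0.82) were lower, and Cdkn1a, p21, did not pass (-0.34, adjusted p = 0.202).

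Mitotic genes were higher in tumor cells for 17 of 24 and lower for 1, with a median of 0.68. Foxm1, which drives G2/M transcription, read 12.53 and 12.61 in tumor cells, against 10.89 and 10.86 in null fibroblasts, and Birc5, survivin, 14.51 and 14.31 in tumor cells, against 13.001 and 12.82 in null fibroblasts. The proliferation antigen Mki67 read 15.43 and 15.35 in tumor cells, against 15.37 and 15.34 in null fibroblasts and did not pass (adjusted p = 0.819). Replication genes were higher for 11 of 25 and lower for 3, none by 4-fold. Glycolysis and hypoxia genes were higher for 21 of 26 and lower for 2, with a median of 0.91. Pgk1 read 18.34 and 17.90 in tumor cells, against 16.45 and 16.36 in null fibroblasts, and Ldha, lactate dehydrogenase A, 16.69 and 16.62 in tumor cells, against 15.26 and 15.23 in null fibroblasts, for differences of 1.71 ± 0.17 and 1.41 ± 0.13. Car9, the hypoxia-induced carbonic anhydrase, was one of the 2 lower members, with 7.15 and 7.22 in tumor cells, against 11.23 and 11.35 in null fibroblasts, and 14.97 and 14.95 in WT. Aldoc (-3.58) was the other. Of 26 cholesterol and fatty acid genes, 7 were higher and 5 lower, none by 4-fold, a share passing near that over all genes. Among 27 antioxidant genes, 13 were higher and 9 lower; Aldh3a1 was 4.79 and the extracellular superoxide dismutase Sod3 4.54 higher, and Gstm2, a glutathione transferase, differed by -2.44. Of 32 oncogenes and stem cell or metastasis genes, 13 were higher and 12 lower. Sox2, a stem cell and neural factor, was at least 70.5-fold higher, with 10.83 and 11.17 in tumor cells, against 4.78 and 4.94 in null fibroblasts. Spp1, osteopontin, was 6.56 higher, and Myc read 12.65 and 12.71 in tumor cells, against 13.70 and 14.16 in null fibroblasts, a difference of -1.24 ± 0.26 that did not pass on the sound scanner files (adjusted p = 0.0708). Igf2bp3, an oncofetal RNA-binding protein gene, was at least 78.1-fold lower.

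Mammary lineage genes gave 5 higher and 7 lower of 18. Gata3, the luminal regulator, read 6.10 and 6.30 in tumor cells, against 11.05 and 11.01 in null fibroblasts, and 9.65 and 9.55 in WT, and was thus lower in tumor cells (-4.83 ± 0.19). Elf5, Csn2 and Pgr failed the background filter in every group. Sox9 was 3.03 higher. For other cell types, macrophage markers had 5 higher and 2 lower of 10. Cd14, the endotoxin co-receptor, read 13.03 and 13.13 in tumor cells, against 5.72 and 5.79 in null fibroblasts, and Aif1, a calcium-binding protein of macrophages, was at least 6.13-fold lower, and these 2 were the members that differed by 4-fold or more. Endothelial markers had 1 higher and 2 lower of 7, striated muscle markers 3 and 5 of 13, and neural markers 4 and 2 of 9. Tnnt2, cardiac troponin T, read 13.20 and 13.38 in tumor cells, against 6.02 and 6.27 in null fibroblasts, and 5.88 and 6.45 in WT, and Myod1 did not pass. Adipocyte, bone and cartilage genes were lower for 7 and higher for 4 of 13, among them Fabp4 (-5.37) and Pparg (-4.01), both known from fat cells. Xist, transcribed from the inactive X chromosome, read 7.36 and 7.22 in tumor cells, against 4.76 and 4.98 in null fibroblasts, and 10.42 and 9.94 in WT, and the 4 Y-linked genes of the list failed the background filter in every group.

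Of the 15 largest differences upward, Wfdc2, a secreted WAP-domain protein raised in ovarian carcinoma, was first, with 16.24 and 16.37 in tumor cells, against 5.97 and 6.13 in null fibroblasts, a difference of 10.25 ± 0.16 (adjusted p = 6.58e-11), or 1219.7-fold. The next genes included Ramp3, a receptor activity-modifying protein (8.57), Aqp5, a water channel of glands (7.75), Msln, mesothelin (6.83), and Mgst2, a microsomal glutathione transferase (7.03). Tas2r109, listed as a bitter taste receptor, read 15.29 and 14.96 in tumor cells, against 7.25 and 6.70 in null fibroblasts, and the melanocortin receptor gene Mc3r 15.40 and 14.84 in tumor cells, against 7.99 and 7.001 in null fibroblasts. Among genes not well above background in null fibroblasts, 2310002L13Rik, now Dynap, had the highest bound, at least 468-fold higher in tumor cells, and Cadm1, a cell adhesion molecule, was at least 121-fold higher. Among the lowest, Rcn3, a calcium-binding protein of the secretory pathway, differed by -9.48, Fstl1, a secreted follistatin-like protein, by -9.46, and Cited1, a transcriptional co-regulator, by -7.29. Cited1 read 7.78 and 7.97 in tumor cells, against 15.08 and 15.25 in null fibroblasts, and 9.50 and 9.60 in WT. Bicc1, an RNA-binding protein, was at least 1515-fold and Calml4, a calmodulin-like protein, at least 1237-fold lower on the authors' scale, with differences of -10.56 and -10.34. With normexp correction and quantile scaling of the sound scanner files these differences were -9.44 and -8.885.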

How the data were processed

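RNA from 14 mouse cell samples was measured on 1-colour (Cy3) Agilent arrays, 2 for each of 7 groups. The authors deposited a table of log2 values, 1 for each of 36413 gene names, with its centring and the step from probe to gene not given in the sources used here; tested against the scanner files, it followed the mean log2 intensity over a gene's spots (r = 0.986) better than that of the probe it names (r = 0.900). The scanner files hold spot intensity and flags for background and saturation, which per the file headers came from Feature Extraction, version 10.1.1.1, whereas version 9.1 stands in the submitters' processing notes. The number of arrays limits the precision.

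Array files with outlier flags on over 20% of spots or r under 0.8 with the others (2 of 14, tumor array A among them) gave no flags. Genes were tested, 25896 in all, when well above background on every array with a sound scanner file in at least 1 group. For tumor cells alone and for tumor cells co-cultured with null fibroblasts that was array B only. A gene counted as well above background on an array when at least 1 of its spots did. The main test was limma 3.58.1 (R 4.3.3; lmFit and eBayes, 7 groups, 7 residual degrees of freedom) with Benjamini-Hochberg adjustment over all genes tested and a threshold of 0.05; the second rule asked also for 4-fold. On simulated data with 25896 genes, 50 of 50 genes lowered by 2 log2 units, 45 of 50 raised by 2, 23 of 50 lowered by 1 and 38 of 50 raised by 1 were recovered, and 7 unchanged genes were called. The simulated arrays shared no slide deviation, and far fewer genes were changed than passed in the data. These counts therefore check the code and do not give the error rates of the real test. Groups came from the sample titles. Slide and replicate letter coincide; same-lettered arrays of tumor cells and null fibroblasts deviated together with r = 0.298, and over all 21 pairs of groups r lay between 0.092 and 0.599.

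Named genes are members of 35 lists, the 15 highest and 15 lowest differences among genes above background in both groups, and the 8 highest bounds each way. A few list members are not reported here by name, and the list counts include them. The members and the lists were chosen with earlier results of these data known. Gene names are those of the array; 23551 of 36413 matched a current RefSeq symbol or synonym (GRCm38.p6). Genes with several probes, 10299 of them, have a single value. Promoters come from RefSeq's table. Tables were read with pandas 2.3.3 in Python 3.11.15 and drawn with matplotlib 3.10.9. Alternatives changed the replicate block, the arrays fitted, the source of values, the background correction, the scaling, the filter, the variance prior and the replicates.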

Additional observations from a re-analysis of the deposited data

Results flagged for a closer look

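For 10 genes named above, the difference of tumor cells from null fibroblasts and that from WT fibroblasts passed in opposite directions, each by at least 2-fold. Null minus WT is the difference between these 2 values, so the choice of the genes fixes its sign and a size of at least 2 log2 units, and it is given as a description with no test. In tumor cells 7 of them were higher than in null and lower than in WT fibroblasts. Col4a5 (collagen IV) was 5.99 against null and -1.56 against WT fibroblasts, with null minus WT at -7.55. Ccnd2 (cyclin D2) was 4.43 against null and -2.55 against WT fibroblasts, with null minus WT at -6.98. Cxcl5 (a neutrophil chemokine) was 4.76 against null and -2.08 against WT fibroblasts, with null minus WT at -6.84. Xist (the X-inactivation transcript) was 2.42 against null and -2.89 against WT fibroblasts, with null minus WT at -5.32. Fbln2 (fibulin 2) was 3.06 against null and -1.36 against WT fibroblasts, with null minus WT at -4.42. Prrx1 (a mesenchymal homeobox factor) was 1.73 against null and -1.87 against WT fibroblasts, with null minus WT at -3.60. Thbs1 (thrombospondin 1) was 1.84 against null and -1.49 against WT fibroblasts, with null minus WT at -3.33. The other 3 were lower than in null and higher than in WT fibroblasts. Myc (the proto-oncogene) was -1.24 against null and 1.19 against WT fibroblasts, with null minus WT at 2.43. Cgn (cingulin) was -2.80 against null and 3.42 against WT fibroblasts, with null minus WT at 6.22. F11r (the junction protein JAM-A) was -2.71 against null and 3.92 against WT fibroblasts, with null minus WT at 6.64. Both comparisons use the same tumor arrays. Every group holds 2 arrays, so no array was tested as an outlier.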

How the results depend on the processing

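Leaving out each array of the comparison in turn gave 11094 to 12356 genes passing and 2179 to 2256 with at least 4-fold, and fitting only the 6 arrays of cells grown alone or the 4 of the comparison gave 13370 and 12249 passing. With the slide as a replicate block 14932 genes passed, 2197 of them at 4-fold, null minus WT gave 9940, and Hsf1 was 2.81. Of the genes named, 2 (Grhl2 and Tgfa) passed with the block but not without it, and none was lost with it. The count at 4-fold was 3593 on the sound scanner files (1527 higher) and 1305 (684 lower) when genes had to be above background in both groups, a filter that removes genes absent from one group and turned the Hox median to 1.49 and moved the fibroblast marker median to -0.19. On the sound scanner files these medians were -2.86 and -2.81, and the mitosis median was 1.06. With normexp correction and quantile scaling the Hox median was -0.83. Centring on the array median and the sound scanner files moved the median of all genes by 0.12 and 0.20, with 60.9% and 58.1% of calls higher against 51.8%. Under the alternatives other than the 14 scanner files, no named gene that passed and could be fitted changed direction, while some that did not pass, such as Ccnd3 and Col5a1, did (0.28 and 0.51 on the sound scanner files).

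With all 14 scanner files, in which tumor array A is faulty, 1414 genes passed, 1347 at 4-fold (673 lower), and 372 for null minus WT. There Hsf1 came to -0.63 (adjusted p = 0.842), and Atf4 to -0.31, Cdh1 to 2.08, Chac1 to -0.0631, Fkbp4 to -0.25, Hsp90aa1 to -1.06, Hspa4l to -0.53, Hspa5 to -0.99, Hspb1 to -0.86, Hspb8 to 2.62, Hspd1 to -1.83, Hsph1 to -0.90, Igfbp6 to -0.15, Klf4 to -0.16, Klf5 to -0.67, Ldha to -0.0316, Mmp2 to 1.42, Pgk1 to -1.36, Prrx1 to -0.20, Smad6 to 0.0173, Twist1 to -1.13 and Vim to -0.63, none passing. The heat shock, ER folding and mitosis medians were -0.68, -0.31 and -0.0189. The 12 sound scanner files gave Hsf1 as 2.88. Having 2 arrays per group limits every value, and genes not well above background give bounds only. These bounds hold for the authors' values and can be smaller with another background correction.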
